A study of Mus musculus with 6 samples.

Results

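The S100 calcium-binding proteins are described here in tumor cells of the MMTV-PyMT mouse, as 10 genes taken by name from a table of 22310 measured genes: S100a1, S100a4, S100a6, S100a8, S100a9, S100a10, S100a11, S100a13, S100a14 and S100a16. All 10 were measured, and the rule that names them uses no expression value. The mice carry the polyoma middle T antigen under the mouse mammary tumor virus promoter, which drives it in mammary epithelium, on an FVB/N background, and the labels give the genotype otherwise as WT. Tumors were taken at about 12 to 18 weeks of age, digested, and the cells were plated overnight on collagen in medium with serum, insulin and human EGF. On the next day cells without CD45, CD31 and Ter119 (Lin-) that carried CD24 were sorted by CD90 into metastasis-initiating cells (MICs, Lin-CD24+CD90+) and, where CD90 was absent, non-MICs (Lin-CD24+CD90-). There were 3 libraries of each population, numbered 1 to 3 in both. The labels do not say whether the numbers stand for separate mice, and the paper counts them as 3 independent experiments or tumors. The p-values measure the spread between these libraries. Every library comes from cells that had spent a night in culture, and none from untouched tumor.

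S100 proteins are small proteins with a pair of EF-hand calcium-binding loops. Most work as dimers that change shape when calcium rises and then bind a target, often an annexin, a cytoskeletal protein or an enzyme, and several are also secreted and act on receptors of other cells. In breast tissue the family is known both for epithelial members and for members that fibroblasts and white blood cells hold in large amounts, and S100a4 is widely studied in metastasis. The comparison of MICs with non-MICs asks which of these transcripts differ between tumor cells that can start metastases and the remaining tumor cells.

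None of the 10 S100 transcripts differed between MICs and non-MICs at an adjusted p-value under 0.05 in limma. Without the replicate number as a block 0.00% of all genes did, so that fit called no gene at all. With the block 0.130% of all genes did. S100a1, S100a6, S100a13 and S100a16 were higher in the MIC library of each of the 3 same-numbered pairs, at 1.07 to 1.85 times the non-MIC level, and 12.5% of all genes were higher in each pair. S100a11 was lower in each pair, at 0.937 to 0.980 times the non-MIC level, and 18.8% of all genes were lower in each. The other 5 went in different directions in different pairs. S100a4 was at 2.99, 2.34 and 0.893 times the non-MIC level in pairs 1, 2 and 3. Short genes as a class were also higher in the MICs of pairs 1 and 2, and all 10 S100 genes are short, so their values are given below beside those of other genes of their length.

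The 10 genes lie on chromosome 3 (GRCm38, GENCODE annotation). S100a1, S100a13, S100a14, S100a16, S100a4, S100a6, S100a8 and S100a9 follow each other within 184.7 kb, from chr3:90511034-90514392 (S100a1) to chr3:90692632-90695721 (S100a9). S100a11 (chr3:93520488-93526287) and S100a10 (chr3:93555080-93564643) lie 2.825 Mb further on, within 44.16 kb of each other. S100a1 and S100a9 are on the minus strand and the other 8 on the plus strand. S100a1 and S100a13 start back to back, 42 bases apart. In S100a4, 302 of the 584 annotated exon bases also belong to Gm42674, a gene that runs through from S100a3 on the same strand, so the count of S100a4 is uncertain to the extent that reads there were divided or set aside.

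RefSeq promoter windows (GRCm38.p6, 250 bases before and 50 from each annotated start, 300 in all) were found for 8 of the 10 genes, and S100a10 and S100a14 are named only. The windows were searched on both strands for TATAAA, the core letters of the TATA box, for TGANTCA, those of AP-1 sites, and for GGGCGG, those of the GC box. TATAAA was found in the windows of S100a4, S100a8 and S100a9, and in 13.62% of the 32851 windows of all genes. These are also the genes with the lowest mean levels per kb of the 10, as given below, and a link between match and level was not tested. The sequences around the match are shown for that reason, with TATAAA in capitals, 5′ to 3′ on the strand of the gene. For S100a4 (plus strand, chr3:90603727-90603756) the match begins at position -31, where the RefSeq start is position 0. For S100a8 (plus strand, chr3:90669029-90669058) it begins at -30, inside the limits that GENCODE gives the gene. For S100a9 (minus strand, chr3:90695704-90695733) it begins at 0, at the first annotated base.
S100a4: ggcctggcagggTATAAAtaggtcagattg
S100a8: caagctttcctcTATAAAagcagctgacac
S100a9: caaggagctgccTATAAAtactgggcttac

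TGANTCA was found in the windows of 2 genes, S100a11 and the second of 2 windows of S100a16, and in 7.808% of all windows. GGGCGG was found in those of S100a9, S100a11 and S100a16, and in 35.66% of all windows. The stretch before S100a11, which had the second highest level of the 10 genes per kb, held TGANTCA at positions -136 and -38 and GGGCGG at -64, -52 and -24, and is shown with these letters in capitals (plus strand, chr3:93520356-93520487, 132 bases outside the gene). The stretch between S100a1 and S100a13 is shown because both genes start at its ends and held none of the 3 motifs (plus strand, chr3:90514393-90514434). A match of letters is a description of the sequence and does not show that a protein binds there.
S100a11: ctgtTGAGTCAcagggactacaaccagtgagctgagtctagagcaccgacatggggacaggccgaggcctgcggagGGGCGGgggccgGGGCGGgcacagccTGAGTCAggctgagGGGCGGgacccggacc
S100a1 to S100a13: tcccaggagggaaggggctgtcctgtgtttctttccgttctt

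The values are read counts that the authors scaled to a common total per library (35000000 within 1) and are called normalized counts below. Between 31467281 and 51759769 reads were recovered per library from the steps of these values, most in replicate 3 of both populations. Thy1, which encodes CD90, was at 1509, 301 and 755 normalized counts in MIC replicates 1, 2 and 3 and at 16.9, 21.1 and 12.6 in the non-MICs, and Cd24a was at between 11309 and 19406 in all 6 libraries. Epithelial Krt18 was at between 97244 and 323545 normalized counts, while Ptprc, which encodes CD45, had at most 14 reads in a library and Kdr of endothelial cells at most 22. These are bulk libraries of sorted cells, so a higher value from more cells of a kind cannot be told apart from one from more RNA per cell.

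To compare levels between genes, normalized counts were divided by the annotated exon length. S100a6 (calcyclin), which binds the ubiquitin ligase adaptor Cacybp, was the most abundant, with a mean over the 6 libraries of 57148 normalized counts per kb and a range of 47057 to 78837. S100a11, which binds annexin A1, followed at 27381 per kb and S100a10, the annexin A2 light chain, at 20915 per kb. The ranges of these 2 overlapped and did not separate them, while the lowest S100a6 value was above the highest of S100a11. S100a16 came next at 2314 per kb, below every value of S100a10. From S100a16 down through S100a1 (1330), S100a13 (792), S100a14 (615), S100a8 (295) and S100a4 (243), each mean per kb had a range that overlapped that of the next gene. S100a9 was lowest at 14.8 per kb, with its highest library at 40.3, below every value of S100a4. S100a6, S100a10 and S100a11 together made up between 92.2% and 96.2% of the normalized counts of the 10 genes, and the 10 genes made up between 0.307% and 0.476% of a library.

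**Figure D1:**
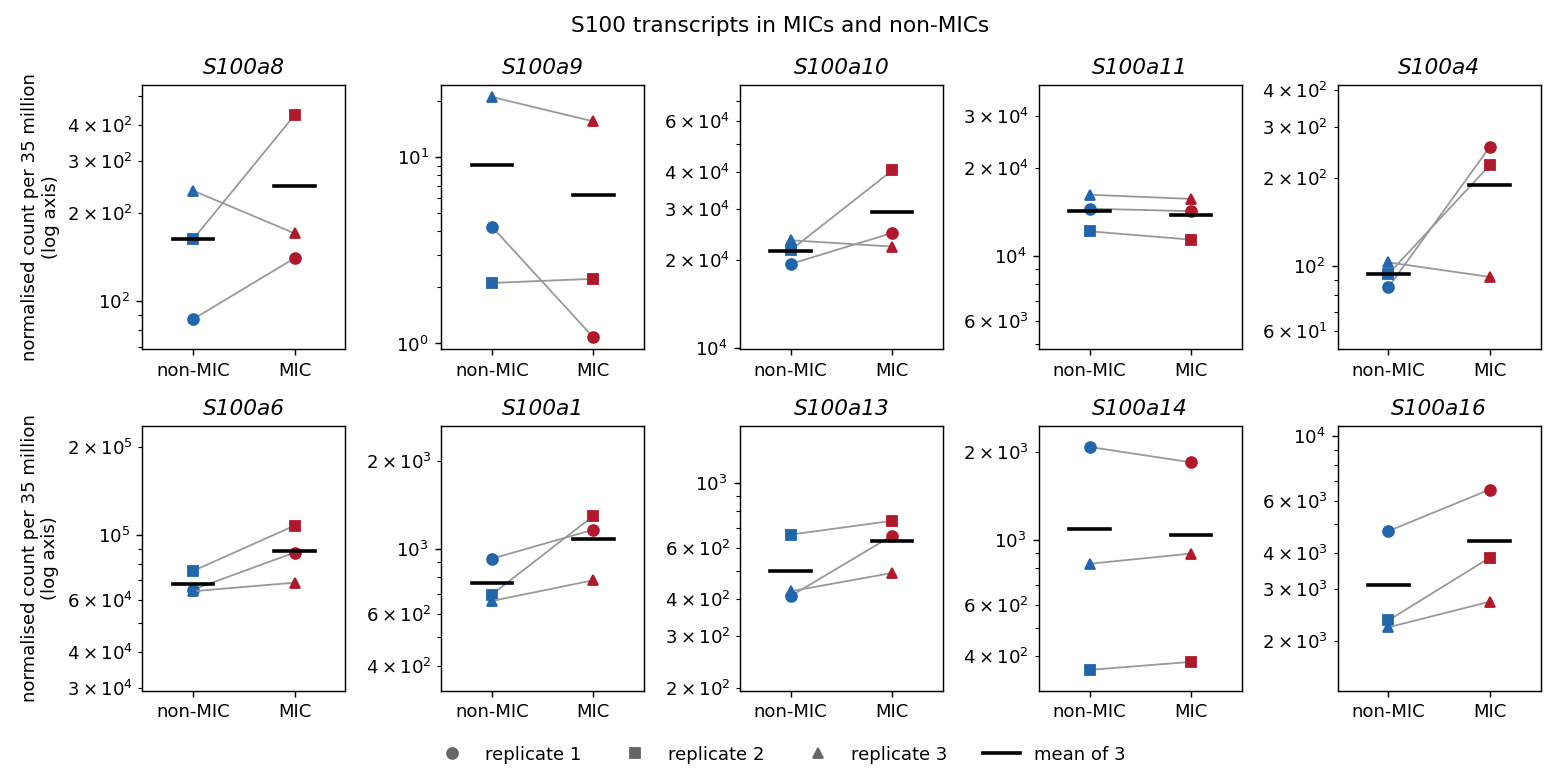
Normalized counts (log axis) of the 10 S100 genes in non-MICs (left, blue) and MICs (right, red), where a marker is a library, its shape the replicate number, a grey line joins same-numbered libraries and a black bar is the mean of 3. The lines of S100a1, S100a6, S100a13 and S100a16 rise in all 3 pairs, those of S100a11 fall slightly in all, and the spread between replicate numbers in S100a14 and S100a9 is larger than that between populations.

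The S100 genes differed in how much of their spread went with the replicate number and how much with the population. The sum of squares of log2(value + 1) over the 6 libraries was divided into these parts as a description. The population part has fewer degrees of freedom than the replicate part and the remainder, so equal shares do not mean equal effects. For S100a14 99.5% went with the replicate number, for S100a11 97.1% and for S100a9 90.0%. For S100a16 the replicate number took 78.9% and the population 18.8%. The population took its highest shares in S100a4 (47.4%), S100a1 (45.1%) and S100a6 (42.2%). S100a10 was divided about equally, with 31.9% for the replicate number, 33.6% for the population and 34.5% for the remainder, which is the part of the difference between populations that changed from pair to pair. The remainder was as high in S100a4 (34.5%) and lowest in S100a14 (0.448%) and S100a11 (0.555%).

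**Figure D2:**
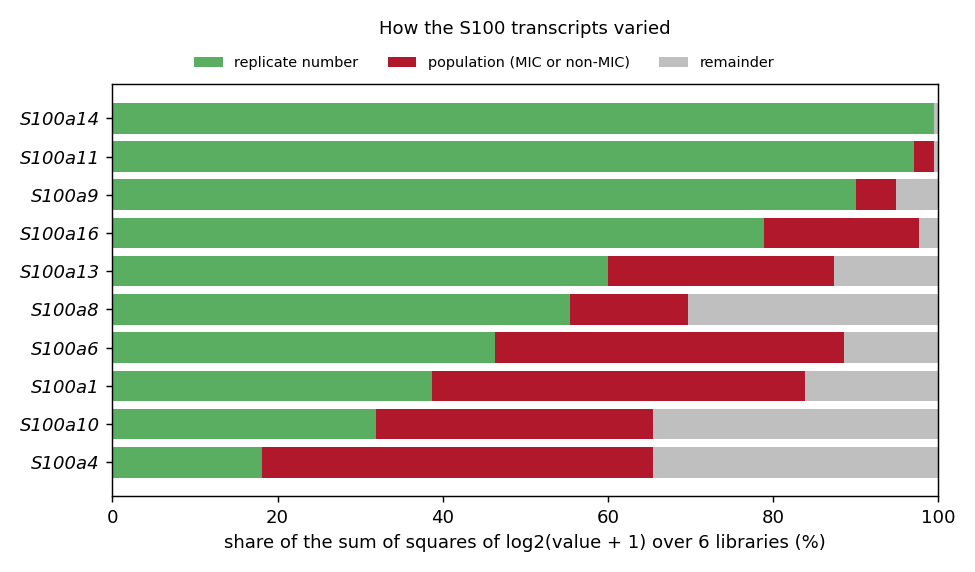
Shares (%) of the sum of squares of log2(value + 1) over 6 libraries that went with the replicate number (green), with the population, MIC or non-MIC (red), and with neither (grey), for each S100 gene. Green fills 99.5% of the bar of S100a14 and 18.1% of that of S100a4.

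The comparison between populations was made with limma on log2(value + 1) over all 22310 genes, on which scale the differences of low genes are understated. Without the replicate number as a block, 0 of the 10 S100 genes passed an adjusted p-value of 0.05 and 0 had an unadjusted p-value under 0.05, against 1.44% of all genes. With the replicate number as a block, 0 passed in limma (0.130% of all genes), 0 in edgeR's quasi-likelihood test of the reads (1.41% of all genes) and 0 of the 9 that DESeq2 gave an adjusted p-value, S100a9 having none (0.889% of the genes it tested). Unadjusted p-values under 0.05 were found for S100a1, S100a4 and S100a16 with the block in limma (11.2% of all genes), for these and S100a8 in edgeR (11.7%), and for 5 genes in DESeq2 (8.58%). The lowest adjusted p-value of any S100 gene in the planned tests was 0.0909, for S100a4 in edgeR with the block.

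Counted without a test, 8 of the 10 log2 fold changes were above 0, as were 45.8% of those of all genes. The median log2 fold change of the 10 was 0.37 and that of all genes -0.04. The S100 genes higher in MICs in all 3 pairs were 4 of 10, against 12.5% of all genes, and those lower in all 3 pairs were 1 of 10, against 18.8%. No S100 gene had all 3 MIC values on one side of all 3 non-MIC values, which 6.24% of all genes had. The pairs differed from each other. In pair 1, 7 of the 10 were higher in MICs (45.2% of all genes) with a median log2 difference of 0.39, in pair 2, 9 (53.5%) with a median of 0.61, and in pair 3, 5 (35.8%) with a median of 0.02. One of the 9 is S100a9, with 2 reads in each library of pair 2, and without it the counts were 7, 8 and 5 of 9 and the medians 0.42, 0.71 and 0.10.

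The difference between MICs and non-MICs went with gene length in pairs 1 and 2. Among protein-coding genes with a mean of at least 100 normalized counts, the 159 genes with at most 1000 exon bases had median log2 differences of 0.46 in pair 1, 0.54 in pair 2 and -0.05 in pair 3. The 1000 genes of 1000 to 2000 bases had medians of 0.29, 0.15 and -0.02. The 4692 genes of 2000 to 5000 bases had medians of 0.01, -0.08 and -0.05, and the 5023 longer genes medians of -0.28, -0.06 and -0.06. S100a1, S100a4, S100a8, S100a11 and S100a13 are in the shortest class, with medians over these 5 of 0.68, 0.89 and -0.05 in the 3 pairs. S100a9 is as short but below that mean and in neither class. S100a6, S100a10, S100a14 and S100a16 have up to 1727, with medians over these 4 of 0.39, 0.61 and 0.11. The medians of the S100 genes were thus above those of their length class in pairs 1 and 2, by less than they were above the median of all genes. S100a11 and S100a14 were below the median of their class in both pairs, S100a1 in pair 1 and S100a13 in pair 2.

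The counts were set against the same classes. Of genes with at most 1000 exon bases, 28.3% were higher in MICs in all 3 pairs and 26.42% were higher with an unadjusted p-value under 0.05 in limma with the block. Of those of 1000 to 2000 bases, 24.7% and 15.0% were. In these classes 2 of 5 and 2 of 4 S100 genes were higher in all 3 pairs, and 2 of 5 (S100a1 and S100a4) and 1 of 4 (S100a16) had such a p-value, against 5.24% of all genes. When the trend with length was removed from each library, an alternative chosen after seeing the data, 2 S100 genes were higher in MICs in all 3 pairs (S100a6 and S100a16) and 2 lower (S100a9 and S100a11), with median log2 differences over the 10 of 0.05, 0.26 and 0.06. Of all genes 15.62% were then higher and 18.7% lower in all pairs, and S100a9 rests on 2 reads in each library of pair 2. What sets the trend was not tested.

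**Figure D3:**
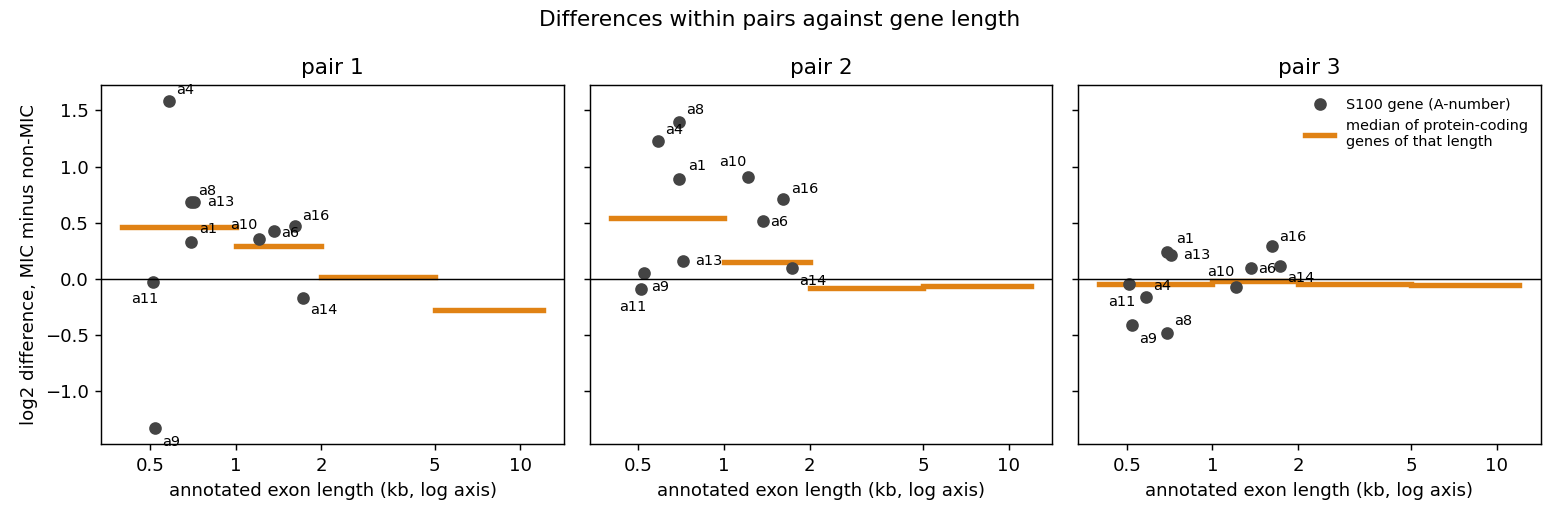
Log2 difference between the MIC and the non-MIC library of each pair (vertical axis) against annotated exon length in kb (log axis) for the 10 S100 genes (points, by A-number), with the median of protein-coding genes in 4 length classes (orange bars). In pairs 1 and 2 the bars step down from short to long genes, from 0.46 to -0.28 and from 0.54 to -0.06, and in pair 3 they lie between -0.06 and -0.02.

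S100a8 and S100a9 encode the subunits of calprotectin, a secreted heterodimer that binds zinc and manganese and signals through Tlr4 and the receptor Ager, and that neutrophils hold in very large amounts. S100a8 was at 140, 432 and 170 normalized counts in MIC replicates 1, 2 and 3 and at 86.8, 163 and 238 in the non-MICs. The MIC library was 1.61 and 2.64 times the non-MIC one in pairs 1 and 2 and 0.716 times in pair 3, and the groups overlapped. The log2 fold change was 0.53 ± 0.56 (SE, limma, n = 3 libraries per population, adjusted p = 1.00). The 95% interval of the ratio ran from 0.583 to 3.60, or from 0.896 to 2.34 with the replicate block. Without MIC replicate 2 the log2 fold change was 0.043 and without non-MIC replicate 1 0.14. With the length trend removed it was 0.18, with log2 differences of 0.19, 0.81 and -0.45.

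S100a9 was near the limit of detection. It had 1, 2 and 23 reads in MIC replicates 1, 2 and 3 and 4, 2 and 30 reads in the non-MICs, and no fold change is given for the pairs that rest on 1 to 4 reads. In pair 3 the MIC value was 0.751 times the non-MIC one. Of the reads of both subunits together, S100a9 took 0.763% (95% exact binomial interval 0.0193% to 4.18%) of 131 in MIC replicate 1 and 4.65% (1.28% to 11.5%) of 86 in its non-MIC partner. In replicate 2 the shares were 0.513% (0.0622% to 1.84%) of 390 and 1.28% (0.156% to 4.55%) of 156, and in replicate 3 they were 8.36% (5.38% to 12.3%) of 275 and 8.11% (5.54% to 11.4%) of 370. The intervals of same-numbered libraries overlapped, and both libraries of replicate 3 lay above both of replicate 2. The intervals cover counting error only.

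Calprotectin transcripts were therefore mostly S100a8, and S100a9 took at most 8.36% of the reads of both subunits in any library. Of 12 neutrophil markers 7 were measured. Ly6g had between 1 and 14 reads in a library, Cxcr2 between 0 and 6, Itgam between 0 and 11, Mpo between 0 and 2, Prtn3 between 0 and 9 and Mmp8 between 0 and 37. In MIC replicate 2, where S100a8 was highest, Mmp8 and Itgam were also highest, while Ly6g and Cxcr2 were highest in non-MIC replicate 2 and Prtn3 in non-MIC replicates 1 and 3. The other marker, Ltf (lactoferrin), which mammary epithelium also makes, was at 2365, 37.8 and 1620 normalized counts in MICs and at 8917, 144 and 2966 in non-MICs. It was lower in MICs in all 3 pairs and passed with the block in limma (log2 fold change -1.56, adjusted p = 0.0122) but not without it (adjusted p = 1.00). Of 13 leukocyte and macrophage markers 10 were measured, with summed values from 1401 to 3537 in MICs and from 1304 to 3249 in non-MICs. Cd14 was the largest of them in every library except MIC replicate 2, where Lyz2 was at 1635 normalized counts and Cd14 at 1391. None of these markers passed with the block in limma or edgeR. Lyz2 of macrophages was highest in replicate 2, with 1470 and 789 reads in MICs and non-MICs against 29 to 210 in the other 4 libraries. The part of these cells in the S100a8 values was not tested.

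**Figure D4:**
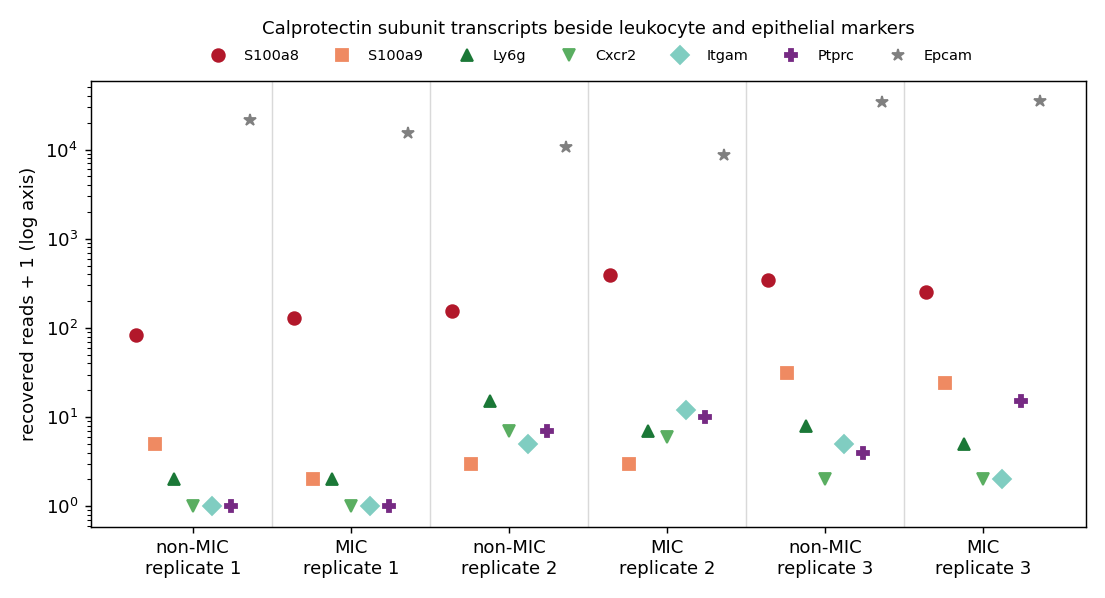
Recovered reads plus 1 (log axis) of S100a8, S100a9, the leukocyte genes Ly6g, Cxcr2, Itgam and Ptprc, and epithelial Epcam in each of the 6 libraries. S100a8 lies between 82 and 388 reads, S100a9 at 1 to 30 and these 4 leukocyte genes at 0 to 14, while Epcam is above all of them in every library. Some leukocyte and macrophage markers that are not drawn had more reads: Cd14 990 to 4582, Lyz2 29 to 1470, Cd68 56 to 307 and Csf1r 50 to 151. The others of that list that are not drawn had at most 56.

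S100a10 forms a heterotetramer with annexin A2 at the plasma membrane, where it tethers plasminogen, and it is the family member that does not bind calcium. It was at 24779, 40526 and 22273 normalized counts in MIC replicates 1, 2 and 3 and at 19440, 21662 and 23415 in the non-MICs. MIC replicate 2 stood apart as the highest, and the other 5 libraries lay close together. The pairs gave ratios of 1.27, 1.87 and 0.951, and the log2 fold change was 0.39 ± 0.26 (SE, limma, adjusted p = 1.00). The 95% interval of the ratio ran from 0.857 to 2.01, or from 0.952 to 1.81 with the replicate block. Without MIC replicate 2 the log2 fold change was 0.13, the lowest of the fits that left out a library. Its partner Anxa2 was at between 66066 and 87517 normalized counts in the 6 libraries. Per kb, S100a10 was 0.989, 1.89 and 0.783 times Anxa2 in the MICs and 0.799, 0.788 and 0.900 times in the non-MICs, an overlap that gave an exact permutation p of 0.4.

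S100a11 binds annexin A1 and is known for membrane repair and keratinocyte growth control. It was the steadiest of the 10, at 14198, 11354 and 15638 normalized counts in MICs and 14482, 12119 and 16159 in non-MICs. In each replicate number the MIC library was slightly lower, with ratios of 0.980, 0.937 and 0.968, and replicate 2 was lowest in both populations. Limma gave it a log2 fold change of -0.06 ± 0.21 (SE, limma, adjusted p = 1.00), so that the 95% interval of the ratio ran from 0.682 to 1.36, or from 0.744 to 1.24 with the replicate block. With 511 exon bases it is the shortest of the 10, and short genes as a class were higher in the MICs of pairs 1 and 2. With the length trend removed, its log2 differences were -0.59, -0.82 and -0.02 and its fold change was -0.48 with the block (limma, unadjusted p = 0.0188, adjusted p = 0.310). Its partner Anxa1 was at 220319, 89290 and 181482 normalized counts in MICs and at 177559, 53124 and 141864 in non-MICs, and was higher in MICs in all 3 pairs. Per kb, S100a11 was 0.367, 0.724 and 0.491 times Anxa1 in the MICs and 0.465, 1.30 and 0.649 times in the non-MICs. The ratio was lower in MICs in each pair but the groups overlapped (exact permutation p = 0.5, and 0.5 after adjustment for each of the 4 partner ratios, with 0.1 the lowest that 3 against 3 can give). The permutation does not use the pairs, so its p-value does not bear on the shared direction within them.

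S100a4, also called metastasin or fibroblast-specific protein, binds the nonmuscle myosin heavy chain Myh9 and is held by fibroblasts and several kinds of leukocyte as well as by some tumor cells. It was at 256, 221 and 92.0 normalized counts in MIC replicates 1, 2 and 3 and at 84.7, 94.0 and 103 in the non-MICs. The 2 high values were MIC replicates 1 and 2, and MIC replicate 3 lay among the non-MICs. These values came from 237, 199 and 136 reads in MICs and 80, 89 and 147 in non-MICs. Limma estimated a log2 fold change of 0.88 ± 0.48 (SE, adjusted p = 1.00), the largest of the 10, with the 95% interval of the ratio from 0.851 to 3.99, and without MIC replicate 3 the log2 fold change was 1.34. With the replicate block the interval was 1.12 to 3.04 (limma, unadjusted p = 0.0207, adjusted p = 0.418). With the length trend removed the log2 fold change was 0.49 with the block (limma, adjusted p = 0.493). Myh9 was at 89420, 61753 and 86655 normalized counts in MICs and at 129799, 97548 and 68565 in non-MICs. Per kb, S100a4 was between 0.0144 and 0.0793 times Myh9, and the ratio did not separate the groups (exact permutation p = 0.2).

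Genes of other cell kinds that hold S100a4 were read in the same libraries. The 9 fibroblast markers, all measured, summed to 2168, 673 and 2011 normalized counts in MIC replicates 1, 2 and 3 and to 1160, 742 and 588 in the non-MICs. In pair 3 all 9 were higher in MICs, with a median log2 difference of 1.65, and in pairs 1 and 2 the medians were -0.15 and 0.10. The list was mixed in the other pairs, with 4 markers higher in MICs and 5 lower in pair 1, and 6 higher and 2 lower in pair 2. Of the 9, 4 were higher in MICs in all 3 pairs. S100a4 was higher in MICs in pairs 1 and 2 and not in pair 3. Col1a2, a collagen chain and the highest of the list, was at 3.94, 1.49 and 6.29 times the non-MIC level in pairs 1, 2 and 3. It rose in MICs with the block in edgeR (log2 fold change 1.81, adjusted p = 7.89e-12), as did the proteoglycan Dcn (1.88, adjusted p = 0.0152). Neither passed in limma with the block (adjusted p = 0.0729 and 0.418). In pair 1, where S100a4 differed most, 3 of the 10 measured leukocyte and macrophage markers were higher in MICs and 6 lower, with Ptprc at 0 in both. In pair 2, where S100a4 was also higher, 8 of these markers were higher and 2 lower. In pair 3, 4 were higher and 6 lower. Several of these markers had only a few reads in a library. The part of fibroblasts and leukocytes in the S100a4 values was not tested.

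S100a6 binds Cacybp and several annexins and is known as a marker of growth-stimulated cells. It was at 87206, 107770 and 68800 normalized counts in MICs and at 65164, 75464 and 64327 in non-MICs. The MIC library was 1.34, 1.43 and 1.07 times the non-MIC one in pairs 1, 2 and 3, but MIC replicate 3 lay below non-MIC replicate 2. A log2 fold change of 0.34 ± 0.24 (SE, limma, adjusted p = 1.00) was estimated. The 95% interval of the ratio ran from 0.860 to 1.87, or from 0.902 to 1.79 with the replicate block. The direction was kept in each pair when the length trend was removed, with log2 differences of 0.10, 0.22 and 0.13. Cacybp was at 6917, 7777 and 5143 normalized counts in MICs and at 4520, 4388 and 4893 in non-MICs, with every MIC value above every non-MIC one (limma, adjusted p = 1.00, and 0.418 with the block). Per kb, S100a6 was between 22.0 and 30.1 times Cacybp (exact permutation p = 0.3).

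S100a1 is the member best known from heart and skeletal muscle, where it acts on calcium release and uptake. It was at 1165, 1298 and 782 normalized counts in MICs and at 927, 699 and 665 in non-MICs. The pairs gave ratios of 1.26, 1.85 and 1.18, and only MIC replicate 3 lay within the range of the non-MICs. The log2 fold change was 0.48 ± 0.28 (SE, limma, adjusted p = 1.00), and with the block the 95% interval of the ratio was 1.06 to 1.85 (limma, unadjusted p = 0.0226, adjusted p = 0.419). With the length trend removed the pairs no longer shared a direction, with log2 differences of -0.16, 0.30 and 0.26.

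S100a13, which starts back to back with S100a1, takes part in the export of fibroblast growth factor 1 from stressed cells. It was at 660, 742 and 492 normalized counts in MICs and at 411, 666 and 426 in non-MICs. The ratios were 1.61, 1.11 and 1.15, with the groups overlapping because both libraries of replicate 2 were the highest of their population. The log2 fold change was 0.35 ± 0.30 (SE, limma, adjusted p = 1.00), and with the length trend removed it was 0.0026, with log2 differences of 0.20, -0.42 and 0.24.

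S100a14 and S100a16 are mainly epithelial members. S100a14 was at 1837, 383 and 897 normalized counts in MICs and at 2073, 359 and 828 in non-MICs. Replicate 1 was highest and replicate 2 lowest in both populations, a 5.77-fold range over the 6 libraries, while the pairs gave ratios of 0.886, 1.06 and 1.08. Its estimated log2 fold change was 0.01 ± 0.74 (SE, limma, adjusted p = 1.00). Without the block the 95% interval of the ratio was 0.306 to 3.32, and with it 0.776 to 1.31.

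S100a16 was at 6571, 3845 and 2721 normalized counts in MICs and at 4738, 2348 and 2224 in non-MICs. Replicate 1 was highest in both populations, and the MIC library was 1.39, 1.64 and 1.22 times its partner. For S100a16 the log2 fold change was 0.49 ± 0.41 (SE, limma, adjusted p = 1.00), and with the block the 95% interval of the ratio was 1.10 to 1.80 (limma, unadjusted p = 0.0102, adjusted p = 0.417). Without the block the log2 fold change was 0.15 when MIC replicate 1 was left out, 0.30 without non-MIC replicate 3, 0.84 without non-MIC replicate 1 and 0.79 without MIC replicate 3. With the length trend removed it was higher in each pair, by 0.20, 0.50 and 0.33 on the log2 scale (limma with the block, unadjusted p = 0.0385, adjusted p = 0.369).

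**Figure D5:**
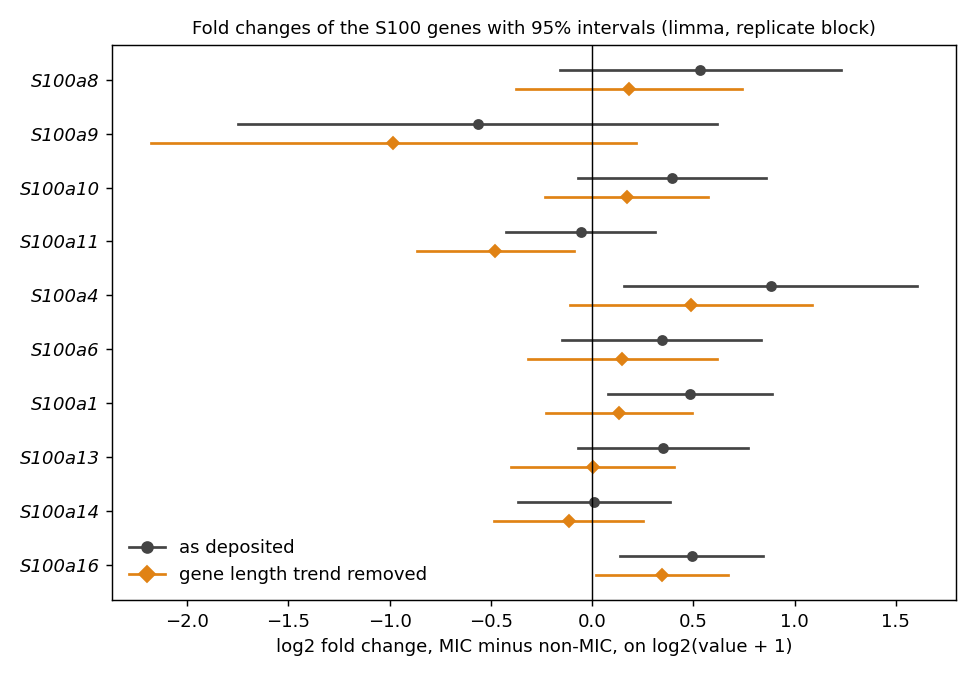
Log2 fold changes (MIC minus non-MIC, on log2(value + 1)) of the S100 genes with 95% intervals from limma with the replicate block, for values as deposited (grey) and with the gene length trend removed (orange). The grey intervals of S100a1, S100a4 and S100a16 lie above 0, and of the orange ones that of S100a16 lies above 0 and that of S100a11 below it; all adjusted p-values are above 0.05.

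Markers of epithelial cell kinds were read in the same libraries. Of 9 basal and myoepithelial markers, 5 rose in MICs with the block in limma and 6 in edgeR with the block. Acta2 (smooth muscle actin) had the highest mean of the list, though Krt17 was above it in every library except MIC replicate 1. Acta2 was at 230574, 3765 and 9839 normalized counts in MICs and at 48582, 724 and 1581 in non-MICs. Its difference held in all 3 pairs (limma with the block, log2 fold change 2.42, adjusted p = 3.12e-05). The others that rose in both were Krt5, Myh11, Cnn1 and Mylk, with Trp63 in edgeR alone. All 9 were higher in MICs in pairs 1 and 3, but in pair 2, 6 were higher and 3 lower. In pair 2 Krt14 was at 0.535 and Krt17 at 0.918 times the non-MIC level. Of 9 luminal markers none passed in limma, and Elf5 and Kit fell in edgeR with the block (adjusted p = 0.000449 and 0.0209). Of 11 squamous markers Krt16 fell in edgeR with the block (adjusted p = 0.00872). None of the endothelial markers (5 of 6 measured) passed in limma or edgeR with the block. The part of these cell kinds in the S100 values was not tested.

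The other single-domain S100 genes were at most at 305 normalized counts in any library, the highest being S100a7a. Its mean was above those of S100a4 and S100a8 in both populations, but below theirs per kb (172 against 243 and 295). S100a7a, a relative of human psoriasin, was at 279, 305 and 232 normalized counts in MICs and at 110, 265 and 232 in non-MICs. S100a3, of hair and skin, was at 138, 118 and 63.6 in MICs and at 45.5, 101 and 76.4 in non-MICs, and 144 of its exon bases also belong to Gm42674. S100a2, S100a5, S100b, S100g and S100z were at most at 15.1 normalized counts in any library. Of these 7 genes none passed in limma or edgeR with or without the block, and none had an unadjusted p-value under 0.05 in limma with or without the block. Of the large proteins with an S100 domain fused to repeats, Tchh (trichohyalin) was measured, at 541 and 440 normalized counts in the MICs and non-MICs of replicate 2 and at 33.4 to 103 in the other 4 libraries.

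The partners and receptors of S100 proteins were read from lists of their own. Of 12 annexins, none passed in limma or edgeR with the block, with a median log2 fold change of -0.01 against 0.37 for the S100 genes. Annexins are longer, with 1348 to 5991 exon bases, and after the length correction the medians were -0.03 and 0.14. Anxa6 was at between 13398 and 28914 normalized counts, with overlapping groups. Anxa11 was at 4635, 5322 and 6062 in MICs and at 6520, 8917 and 6036 in non-MICs (limma, log2 fold change -0.41 ± 0.22 SE, adjusted p = 1.00). Of 12 intracellular partners 11 were measured and none passed. The scaffold protein Ahnak, which binds the S100a10 complex, was at 28463, 43786 and 75581 normalized counts in MICs and at 55053, 54674 and 49117 in non-MICs, with no shared direction.

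Of 9 receptors and plasminogen genes 8 were measured, and 1 passed in edgeR with the block. It was Mcam, an adhesion receptor that binds S100a8 and S100a9, at 13403, 3504 and 3699 normalized counts in MICs and at 6162, 2358 and 2504 in non-MICs. It was higher in MICs in all 3 pairs (edgeR with the block, log2 fold change 0.75, adjusted p = 0.0241) and did not pass in limma with the block (adjusted p = 0.212). Tlr4 was at 731, 1091 and 699 normalized counts in MICs and at 574, 430 and 721 in non-MICs, and Ager was at 10.8 to 70.1 in the 6 libraries. Bsg, another receptor of S100a9, was at between 9170 and 19032, and neither it nor the plasminogen activator Plat (1662 to 4184) or the urokinase receptor Plaur (3904 to 15756) passed in these tests.

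The S100 genes did not share 1 pattern over the libraries. Pearson correlations of log2(value + 1) over the 6 libraries, which come in pairs and share their depth and the length trend, are given as a description. The highest between members were 0.89 for S100a6 with S100a10 and 0.89 for S100a6 with S100a13, and the lowest was -0.82 for S100a11 with S100a13. The calprotectin subunits S100a8 and S100a9 were at 0.08, and the neighbors S100a1 and S100a13 at 0.55. With only 1 to 4 reads in each library of replicates 1 and 2, S100a9 has uncertain correlations, also with the gene most like it. Among 11148 genes outside the family with a mean of at least 100 normalized counts, the gene most like each member over the 6 libraries was Mfsd14b for S100a1, Psmd6 for S100a4, Cmtr2 for S100a6, Zfp874b for S100a8, Sytl4 for S100a9, Bnip3l for S100a10, Pold3 for S100a11, Gja1 for S100a13, Tmem246 for S100a14 and Pde6d for S100a16. Their correlations lay between 0.987 and 0.999, and are given with no test. Gja1, a gap junction protein, was the most abundant of these genes, at 21150, 29280 and 14520 normalized counts in MICs and 10060, 22780 and 11690 in non-MICs.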

How the data were processed

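RNA of sorted PyMT MICs and non-MICs (3 libraries each) had been made into stranded mRNA libraries and sequenced for 75 cycles. The deposited signal is counts per gene that the authors scaled to one library total. The paper's text names Bowtie2 and samtools on GRCm38, and the submitters' processing notes name STAR and HTSeq on mm10 and GRCm38; versions and the strand setting of counting are not given in the sources used here. Values divided by the step of 1 read gave whole reads, within 0.01, for at least 99.97% of values. Columns of no sample numbered 0.

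Of 22310 identifiers, 22161 had a symbol in GENCODE vM21. limma 3.58.1 (R 4.3.3; lmFit, eBayes with trend, log2(value + 1), Benjamini-Hochberg adjustment over all genes, threshold 0.05) was the main test, without a block, since the study ranked genes by an unpaired measure. edgeR 4.0.16 (quasi-likelihood, TMM factors) and DESeq2 1.42.0 were run on recovered reads. The replicate numbers of the labels pair the libraries: departures of same-numbered libraries from group means correlated across genes at 0.573, 0.668 and 0.746. The mean for different numbers (-0.330) adds no separate evidence, because departures from a mean of 3 libraries sum to 0. Pair counts and partner ratios used pandas 2.3.3 and scipy 1.17.1, with two-sided exact permutation tests of the ratios that did not use the pairs. The length trend was removed per library by a smooth curve of span 0.3. Procedures were tested on simulated data. The 10 genes, the partner and marker lists and the tests were chosen with earlier results of these data known. The partner ratios and the length correction were added, and S100a2 joined the list of other S100 genes, after the values had been seen. Named genes were the members, other S100 genes, fixed partners, the gate genes, the most similar gene per member, and the highest marker of each list with those past the threshold; further genes were chosen after their values were seen. Some marker genes are not reported here. Reads were not collapsed by molecular identifiers. The binomial intervals of the S100a9 shares cover counting error only, and the limma intervals rest on the spread between libraries.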

Additional observations from a re-analysis of the deposited data

How the results depend on the processing

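No S100 gene passed the threshold in any of the 25 settings tried: a filter at the median value, pseudocounts of 0.1 and 10, TMM and quantile scaling, no trend, each library or pair left out, the replicate block, edgeR, DESeq2 and the length correction. The count over all genes was 0 in limma without a block. It was 29 with the replicate block, 11, 59 and 0 with the block and without replicate 1, 2 or 3, 315 in edgeR with the block (130 after filterByExpr), 1 in DESeq2 and 133 in DESeq2 with the block. Settings added after seeing the data gave 32 with TMM and the block, 12 with quantile scaling and the block and 79 with the length correction and the block. The count of S100 genes higher in all 3 pairs fell from 4 to 2 with the length correction and to 3 with quantile scaling. Pairing by the replicate number as a block changed no call of an S100 gene. The direction was kept in all settings by 7 S100 genes, but with a library left out the log2 fold changes ranged widely: 0.34 to 0.70 for S100a1, 0.60 to 1.34 for S100a4, 0.18 to 0.51 for S100a6, 0.043 to 0.87 for S100a8, 0.13 to 0.56 for S100a10, 0.22 to 0.57 for S100a13 and 0.15 to 0.84 for S100a16. S100a9 turned without MIC replicate 1 or without non-MIC replicate 3 (log2 fold changes from -1.46 to 0.25 over the libraries left out), S100a11 without MIC replicate 2 or non-MIC replicate 3 (-0.17 to 0.074), and S100a14 when any of 4 libraries was left out (-0.61 to 0.65). S100a14 was also below 0 in edgeR (-0.035) and DESeq2 (-0.0034), with the block without replicate 2 (-0.029) or 3 (-0.042), and after the length correction (-0.12). The adjusted p-value of the lowest S100 gene ranged from 0.0909 to 1 over the settings. The filter at the median left S100a9 out. The standard errors of the S100 genes in limma without a block ran from 0.21 for S100a11 to 1.05 for S100a9, which rests on 1 to 30 reads a library.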
